A study of Homo sapiens with 18 samples.

Results

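The extracellular matrix genes described here were the collagens, laminins, fibronectin, integrin subunits, matrix metalloproteinases (MMPs), tissue inhibitors of metalloproteinases (TIMPs), ADAMTS proteases and lysyl oxidases. They were taken by gene symbol from the table of log2 signals, and 74 of its 13141 genes matched. These were 22 collagen chains, 8 laminin chains, 19 integrin subunits, 8 MMPs, 2 TIMPs, 10 ADAMTS proteases, LOX, FN1 and 3 genes whose symbols begin like an integrin's but that encode no subunit. The last were ITGB1BP1, a cytoplasmic partner of the integrin beta 1 tail, ITGB3BP, a centromere protein, and ITGB4BP, an older symbol of EIF6. LOXL2 and TIMP3 were not analysed here. The cells were 786-O, an established clear cell renal cell carcinoma (ccRCC) line that lacks functional VHL, the ubiquitin ligase subunit that marks hypoxia-inducible factors (HIFs) for destruction. Transcripts were measured on 18 Illumina HumanHT-12 V4 arrays in 6 groups of 3. VHL-/- cells and cells labelled VHL+/+, in which VHL was put back, each carried a scrambled control shRNA (SCR), an shRNA against PBRM1, a subunit of the PBAF chromatin remodelling complex, or an shRNA against KDM5C, a histone H3K4 demethylase. All groups thus came from 1 tumour line with a stably expressed hairpin, with 1 hairpin for each target and no untransduced arrays. By the labels, chip 1 held the first and second replicate of each group, 12 arrays in all, and chip 2 held the third, 6 arrays.

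Collagens are trimers that form fibrils (types I, III and V), the basement membrane network (type IV) or beaded filaments beside it (type VI). Laminins are heterotrimers of an alpha, a beta and a gamma chain and are the other main polymer of the basement membrane, on which renal tubular epithelium rests. Integrins are alpha-beta pairs that bind these ligands and link them to the cytoskeleton, MMPs and ADAMTS proteases cut them, TIMPs hold the proteases in check, and lysyl oxidases cross-link collagen and elastin. In ccRCC the loss of VHL is known for its effects on matrix deposition, since pVHL binds fibronectin and collagen IV and since HIFs induce several matrix-modifying enzymes.

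The signals were log2 values, quantile normalised by the authors, and ran from 6.27 to 14.7 with a median of 7.65. They are relative brightness of a gene's probes, so differences are taken only for a gene against itself across arrays. Signals of different genes were ranked to mark low signal and to choose genes to name. Of the 74 members, 26 lay in the dimmest 0.25 of the table by mean signal, called dim below. Of the 10 markers chosen for a renal tumour line, 9 were listed and none was dim, whereas the endothelial markers PECAM1 and TEK were dim and CDH5, VWF and KDR had no row. The fibroblast list had 3 of its 8 genes in the table, with ACTA2 (mean signal 8.45) and LUM (7.39) not dim, POSTN dim, and DCN, PDGFRA, PDGFRB, THY1 and FAP without a row. Of 6 leukocyte markers 3 were listed, of which LYZ and CD79A were dim and CD68 (mean signal 8.57) was not, and PTPRC, CD3E and CD14 had no row. CD68 was lower with VHL in SCR cells by a log2 fold change of -0.44 (limma adjusted p = 0.0231). With PBRM1 and KDM5C shRNA it differed by -0.10 and -0.15 (limma adjusted p = 0.764 and 0.540). In the order SCR, PBRM1 shRNA and KDM5C shRNA, the renal marker CDH6 was higher with VHL by 0.90, 1.05 and 1.07 (limma adjusted p = 0.0137, 0.00430 and 0.00514). The renal marker AXL differed by -0.49, -0.35 and -0.43 (limma adjusted p = 0.0196, 0.111 and 0.0397). Any part of these markers in the VHL results was not tested. PBRM1 signal was 7.41, 7.24 and 7.26 in VHL-/- SCR cells and 7.16, 7.18 and 7.38 in VHL-/- cells labelled PBRM1 shRNA. In VHL+/+ cells it was 7.38, 7.46 and 7.22 with SCR and 7.51, 7.09 and 7.02 with PBRM1 shRNA. The PBRM1 transcript therefore showed no detectable fall on these arrays (limma adjusted p of 0.864 without and 0.639 with VHL), and KDM5C had no row in the table, so the shRNA groups are named by their labels alone. VHL itself differed by 0.08 between the SCR groups (limma adjusted p = 0.766), while the HIF targets CCND1 and ADM were lower in VHL+/+ SCR cells by log2 fold changes of -1.61 and -1.78. In total 3130 genes and 13 members differed between the chips at an adjusted p under 0.05, so chip was a term of the fit and differences within each chip are given beside the pooled ones.

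Each comparison was fitted with limma across all 13141 genes. A member passed the test when its Benjamini-Hochberg adjusted p was under 0.05, and was called when its fold change also reached 1.5. Of the 74 members, 5 were called in at least 1 of the 7 comparisons between groups (COL6A3, MMP7, LAMA5, LAMB1 and ITGA5), 16 passed the test in at least 1, and 58 passed it in none. The share of all genes over the 7 comparisons together is not given here, so nothing is read from these counts. In single comparisons between 0.89% and 1.81% of all genes were called, and between 2.37% and 5.43% passed the test.

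The question of what VHL changed in the matrix was asked in each of the 3 shRNA backgrounds, on arrays that the 3 comparisons do not share. COL6A3, the largest chain of collagen VI, was lower in VHL+/+ cells in every background. MMP7 (matrilysin) and LAMA5, the alpha 5 chain of epithelial basement membrane laminins, were higher in every background, and LAMB1, the beta 1 chain of many laminins, was higher in the SCR cells. In SCR cells 4 members were called, 3 higher and 1 lower, or 5.41% of the members where 1.03% of all genes were called, and 6 passed the test where 3.2% of all genes did. With PBRM1 shRNA 3 members were called (1.02% of all genes) and 5 passed the test (2.37% of all genes). With KDM5C shRNA 3 members were called (0.89% of all genes) and 7 passed the test (2.77% of all genes). The medians over the 74 members lay near 0, at -0.001, -0.02 and 0.02 on the log2 scale in SCR, PBRM1 shRNA and KDM5C shRNA cells. In such bulk RNA, fewer cells that express a gene and less RNA per cell cannot be told apart.

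COL6A3 signal was 9.07, 8.98 and 9.21 in VHL-/- SCR cells and 7.60, 7.45 and 7.60 in VHL+/+ SCR cells. In PBRM1 shRNA cells it was 9.72, 9.70 and 9.86 without VHL and 7.93, 8.54 and 8.08 with it. In KDM5C shRNA cells it was 9.21, 9.60 and 9.73 without VHL and 8.36, 7.97 and 7.87 with it. All 9 VHL+/+ arrays were below all 9 VHL-/- arrays, with no overlap in any background. The log2 fold change was -1.54 ± 0.16 (SE, n = 3 against 3 arrays, limma adjusted p = 7.09e-05), or 2.91-fold lower, in SCR cells. It was -1.57 with PBRM1 shRNA (limma adjusted p = 3.07e-05) and -1.44 with KDM5C shRNA (limma adjusted p = 7.55e-05). Within chip 1 the difference was -1.50, -1.47 and -1.24, and within chip 2 it was -1.61, -1.78 and -1.86. The call held without any single array and under every other processing tried. The 250 bases before the RefSeq start of COL6A3, at chr2:237414165-237414414 on the minus strand (GRCh38.p14), are shown because this difference held in every setting.

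COL6A3: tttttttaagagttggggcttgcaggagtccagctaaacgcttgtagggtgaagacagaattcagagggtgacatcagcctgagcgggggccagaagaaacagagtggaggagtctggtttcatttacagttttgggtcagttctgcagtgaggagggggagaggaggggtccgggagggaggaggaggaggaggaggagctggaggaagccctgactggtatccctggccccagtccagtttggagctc

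This stretch and the others printed below were searched on both strands for 5 short motifs, the HIF core (ACGTG or GCGTG), an AP-1 site (TGANTCA), an interferon-stimulated response element (GAAANNGAA), a TATA box (TATAAA) and a GC box (GGGCGG). Among 27305 promoters of the same length in the RefSeq table, 43.1%, 6.60%, 7.06%, 11.1% and 42.3% held a match, in that order. The COL6A3 stretch held none of the 5. Promoter entries existed for 49 of the 74 members, and matches describe the letters of these windows only.

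The chains that form a trimer with COL6A3 did not pass the test for VHL. COL6A1 differed between VHL+/+ and VHL-/- by 0.12, -0.23 and -0.13 in the 3 backgrounds and COL6A2 by 0.00, -0.09 and -0.19, with limma adjusted p of at least 0.197 for both chains.

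MMP7 encodes a small secreted metalloproteinase of epithelial cells that cuts proteoglycans and fibronectin. Its signal was 7.65, 7.67 and 8.97 in VHL-/- SCR cells and 9.12, 8.91 and 11.12 in VHL+/+ SCR cells. In PBRM1 shRNA cells it was 7.28, 7.08 and 7.82 without VHL and 8.49, 8.64 and 11.88 with it. In KDM5C shRNA cells it was 6.94, 6.89 and 8.92 without VHL and 8.89, 8.33 and 11.19 with it. On each chip every VHL+/+ array was above the VHL-/- arrays of its background, and all chip 2 arrays were above the chip 1 arrays of their group, so that across chips the SCR and KDM5C groups overlapped. The log2 fold change was 1.62 ± 0.36 (SE, n = 3 against 3, limma adjusted p = 0.0222) in SCR cells, 2.28 (limma adjusted p = 0.00199) with PBRM1 shRNA and 1.89 (limma adjusted p = 0.00946) with KDM5C shRNA. These are 3.08-, 4.86- and 3.70-fold. Within chip 1 the difference was 1.36, 1.39 and 1.70, and within chip 2, with 1 array a group, it was 2.16, 4.07 and 2.26. MMP7 signal was 1.99 higher on chip 2 than on chip 1 over all groups, and without the chip term no MMP7 call remained (limma adjusted p of 0.566, 0.427 and 0.498). The SCR call was also lost without any single one of the 6 SCR arrays (limma adjusted p between 0.0519 and 0.102) and with a trended robust prior (0.0607), and the KDM5C call without VHL+/+ KDM5C shRNA replicate 3 (limma adjusted p = 0.0667).

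The stretch before the MMP7 start, at chr11:102530748-102530997 on the minus strand (GRCh38.p14), is shown for its 2 matches, in capitals. TGAGTCA begins 67 bases and TATAAA 30 bases before the start.

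MMP7: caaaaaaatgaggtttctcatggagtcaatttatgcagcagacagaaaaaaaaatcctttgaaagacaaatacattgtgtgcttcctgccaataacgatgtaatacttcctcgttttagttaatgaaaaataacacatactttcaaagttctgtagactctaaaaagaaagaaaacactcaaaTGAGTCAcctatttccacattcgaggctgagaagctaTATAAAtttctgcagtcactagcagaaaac

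The other 7 MMPs gave smaller values. MMP24, a membrane-type MMP, rose with VHL in KDM5C shRNA cells, from 7.22, 7.24 and 7.28 to 7.51, 7.62 and 7.78 (log2 fold change 0.39, limma adjusted p = 0.0248), and differed by 0.15 and 0.13 in SCR and PBRM1 shRNA cells. It passed in 13 of 18 fits that left out 1 array, failing without array 2 or 3 of VHL+/+ KDM5C shRNA cells or any 1 array of VHL-/- KDM5C shRNA cells (limma adjusted p up to 0.138), and also failed without the chip term, with only its own arrays and within chip 1 (up to 0.164). MMP1, MMP2, MMP3, MMP13, MMP14 and MMP26 were all dim, and none passed the test. MMP2, the gelatinase that cuts collagen IV, differed by -0.10, -0.13 and -0.17, and MMP14, the membrane protease that activates it, by -0.13, 0.00 and 0.06. The inhibitor TIMP1 differed by -0.15, -0.26 and 0.02 and TIMP2 by 0.14, 0.04 and 0.09, with no TIMP passing the test.

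Among the laminins, LAMA5 signal was 7.12, 7.14 and 7.94 in VHL-/- SCR cells and 7.82, 7.85 and 8.94 in VHL+/+ SCR cells. In PBRM1 shRNA cells it was 7.59, 7.19 and 8.0 without VHL and 8.21, 8.37 and 9.69 with it. In KDM5C shRNA cells it was 7.62, 7.96 and 8.35 without VHL and 8.37, 8.19 and 9.18 with it. As for MMP7, the chip 2 arrays were the highest of every group, and on each chip the VHL+/+ arrays of a background were above the VHL-/- arrays of the same background. The log2 fold change was 0.80 ± 0.15 (SE, n = 3 against 3, limma adjusted p = 0.00854) in SCR cells, 1.16 (limma adjusted p = 0.000405) with PBRM1 shRNA and 0.60 (limma adjusted p = 0.0450) with KDM5C shRNA. Within chip 1 it was 0.70, 0.90 and 0.49, and within chip 2 it was 1.00, 1.68 and 0.83. LAMA5 was 0.90 higher on chip 2 over all groups, and the calls were lost without the chip term (limma adjusted p of 0.498, 0.319 and 0.680). The KDM5C call also ended, at limma adjusted p between 0.0539 and 0.154, without any 1 of 13 arrays: VHL+/+ SCR replicates 1, 2 and 3, VHL+/+ PBRM1 shRNA replicate 2, VHL+/+ KDM5C shRNA replicates 1, 2 and 3, VHL-/- SCR replicates 1, 2 and 3, VHL-/- PBRM1 shRNA replicate 2, and VHL-/- KDM5C shRNA replicates 1 and 3. With only the arrays compared, the LAMA5 calls in PBRM1 shRNA cells (limma adjusted p = 0.0639) and KDM5C shRNA cells (0.121) ended, as did the MMP7 call in PBRM1 shRNA cells (0.126). The LAMA5 call in KDM5C shRNA cells ended within chip 1 too (0.110).

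The stretch before the LAMA5 start, at chr20:62367313-62367562 on the minus strand (GRCh38.p14), is shown beside that of MMP7 because both genes were higher with VHL. It was 82.8% G and C against 33.6% for MMP7 and a median of 58% over all promoters, and held 5 GC boxes, in capitals, at 152, 144, 63, 53 and 33 bases before the start, the first and second of them on the opposite strand. It held no AP-1 site and no TATA box.

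LAMA5: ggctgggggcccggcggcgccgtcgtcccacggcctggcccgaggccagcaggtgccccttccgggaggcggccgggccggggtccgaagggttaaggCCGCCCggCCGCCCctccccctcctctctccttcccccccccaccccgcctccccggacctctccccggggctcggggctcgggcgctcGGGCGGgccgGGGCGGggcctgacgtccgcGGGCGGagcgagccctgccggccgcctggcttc

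LAMB1 signal was 9.35, 9.36 and 9.14 in VHL-/- SCR cells and 9.99, 9.92 and 9.83 in VHL+/+ SCR cells, with no overlap. Its log2 fold change was 0.63 ± 0.12 (SE, n = 3 against 3, limma adjusted p = 0.00839), with 0.60 within chip 1 and 0.69 within chip 2, and this call held without any single array and under every other processing tried. With PBRM1 shRNA it was 0.41 (limma adjusted p = 0.0902) and with KDM5C shRNA 0.22 (limma adjusted p = 0.433). LAMB3, a beta chain of epithelial anchoring laminin, differed by -0.38, -0.32 and -0.46 and did not pass the test (limma adjusted p = 0.207, 0.364 and 0.124). LAMC1, the gamma chain of most other laminins, differed by 0.18, 0.07 and 0.18, LAMA3 by 0.18, 0.26 and 0.11 and LAMB2 by -0.04, 0.27 and 0.09, and none of these passed the test. The median over the 8 laminins was 0.07, 0.17 and 0.14 in the 3 backgrounds.

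**Figure D1:**
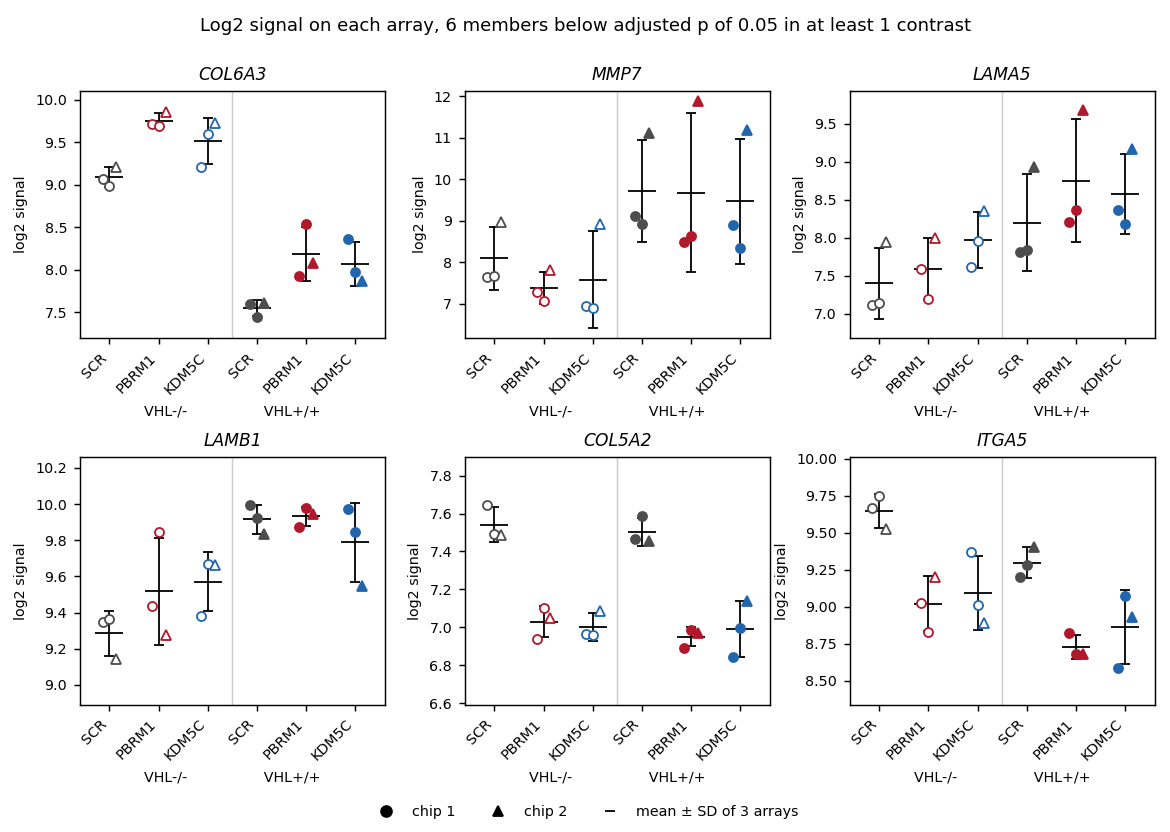
Log2 signal (vertical axes, a different range in each panel) of COL6A3, MMP7, LAMA5, LAMB1, COL5A2 and ITGA5 on each of the 18 arrays, by group along the horizontal axis, open for VHL-/- and filled for VHL+/+ cells, circles for chip 1 and triangles for chip 2, with black bars for the mean ± SD of 3 arrays. The 9 VHL+/+ arrays lie below the 9 VHL-/- arrays for COL6A3, chip 2 arrays are the highest of their groups for MMP7 and LAMA5, and the SCR arrays lie above all shRNA arrays for COL5A2.

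The basement membrane collagens COL4A1 and COL4A2, whose chains assemble into 1 trimer and whose proteins pVHL is known to bind, lie head to head in the genome. The 126 bases between their RefSeq starts, at chr13:110307158-110307283 in GRCh38.p14, read on the strand of COL4A2, are shown because both genes are transcribed away from this stretch. The single GC box match is in capitals.

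COL4A1/COL4A2: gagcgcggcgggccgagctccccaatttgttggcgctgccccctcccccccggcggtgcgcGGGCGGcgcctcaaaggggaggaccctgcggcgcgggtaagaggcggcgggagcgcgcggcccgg

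COL4A1 signal was 11.62, 11.55 and 12.20 in VHL-/- SCR cells and 12.18, 12.17 and 12.47 in VHL+/+ SCR cells, where COL4A2 was 8.35, 7.71 and 7.88 and then 8.20, 8.59 and 8.62. COL4A1 differed by 0.48, 0.57 and 0.50 in the 3 backgrounds (limma adjusted p = 0.127, 0.0818 and 0.130) and COL4A2 by 0.49, 0.25 and 0.43 (limma adjusted p = 0.124, 0.577 and 0.205). All 6 values were above 0 and none passed the test, and the SCR groups overlapped for both chains. For COL4A1 this overlap was across chips, and on each chip every VHL+/+ array was above the VHL-/- arrays of its background. For COL4A2 the SCR groups overlapped within chip 1 too. COL7A1, the anchoring fibril collagen, differed by -0.13, -0.37 and -0.45, COL18A1, the source of endostatin, by 0.16, 0.37 and 0.19, and COL8A1 by -0.06, 0.01 and 0.13. COL1A1, COL1A2 and COL3A1, the chains of the main fibrillar collagens, were dim and differed by at most 0.11. COL6A3 was the only 1 of the 22 collagens that passed the test for VHL, in each of the 3 backgrounds. Fibronectin (FN1), the other matrix ligand of pVHL, differed by 0.20, 0.31 and 0.16 (limma adjusted p = 0.306, 0.0944 and 0.455). LOX, a lysyl oxidase known as a HIF target, differed by -0.25, -0.24 and -0.16 (limma adjusted p = 0.193, 0.262 and 0.493).

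No integrin subunit was called for VHL. ITGB8, which pairs with ITGAV and binds latent TGF-beta, passed the test in every background at a fold under 1.5. Its signal was 7.22, 7.26 and 7.15 in VHL-/- SCR cells and 6.80, 6.82 and 6.68 in VHL+/+ SCR cells, and over all groups the VHL+/+ arrays ran from 6.68 to 6.88 and the VHL-/- arrays from 6.97 to 7.26. These VHL+/+ values lay at the level of dim members such as MMP14 (mean signal 6.88), and what this does to the fold was not tested. The ITGB8 log2 fold change was -0.44 (limma adjusted p = 0.000752), -0.35 (0.00416) and -0.26 (0.0309) in SCR, PBRM1 shRNA and KDM5C shRNA cells. The SCR value passed in every setting. The PBRM1 value failed with only its own arrays (0.116) and within chip 1 (0.0584). The KDM5C value failed without any 1 of its own 6 arrays other than VHL-/- replicate 2 (limma adjusted p up to 0.122), and up to 0.317 in 3 other settings. ITGB5, another partner of ITGAV and a vitronectin receptor, fell by 0.38 and 0.39 on the log2 scale with PBRM1 and KDM5C shRNA (limma adjusted p = 0.0347 and 0.0308) and differed by -0.29 in SCR cells (limma adjusted p = 0.103). ITGB5 too was higher on chip 2, by 0.38. Its PBRM1 value failed without any 1 of its own 6 arrays or VHL-/- SCR replicate 1 (limma adjusted p up to 0.128), its KDM5C value without VHL+/+ replicate 2 or 3 or VHL-/- replicate 1 or 3 (up to 0.126), and both failed without the chip term (0.575 and 0.486), with only their own arrays, within chip 1 and with a trended robust prior. The shared alpha subunit ITGAV differed by 0.29, 0.25 and 0.11, the shared beta subunit ITGB1 by 0.01, -0.10 and -0.12, ITGB3 by 0.06, 0.08 and -0.12, and the laminin receptor subunit ITGA3 by -0.03, 0.07 and -0.08, and none of these passed the test. ITGB2, the leukocyte beta subunit, differed by 0.11, 0.52 and 0.38 (limma adjusted p = 0.820, 0.0868 and 0.217). The median over the 19 subunits was -0.01, -0.04 and -0.04. The non-subunit ITGB1BP1 fell in KDM5C shRNA cells, from 10.22, 10.69 and 10.05 to 9.80, 9.83 and 9.77 (log2 fold change -0.52, limma adjusted p = 0.0210). It reached 1.5-fold within chip 1 (-0.64) and without VHL-/- KDM5C shRNA replicate 1 (-0.61) or 3 (-0.60). It failed the test without VHL-/- KDM5C shRNA replicate 2 (log2 fold change -0.36, limma adjusted p = 0.0754) or VHL+/+ KDM5C shRNA replicate 1 (0.0881) or 2 (0.0768), without the chip term (0.138) and with only its own arrays (0.218). None of the 10 ADAMTS proteases passed the test for VHL, and the median over them was -0.02, -0.001 and -0.06.

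**Figure D2:**
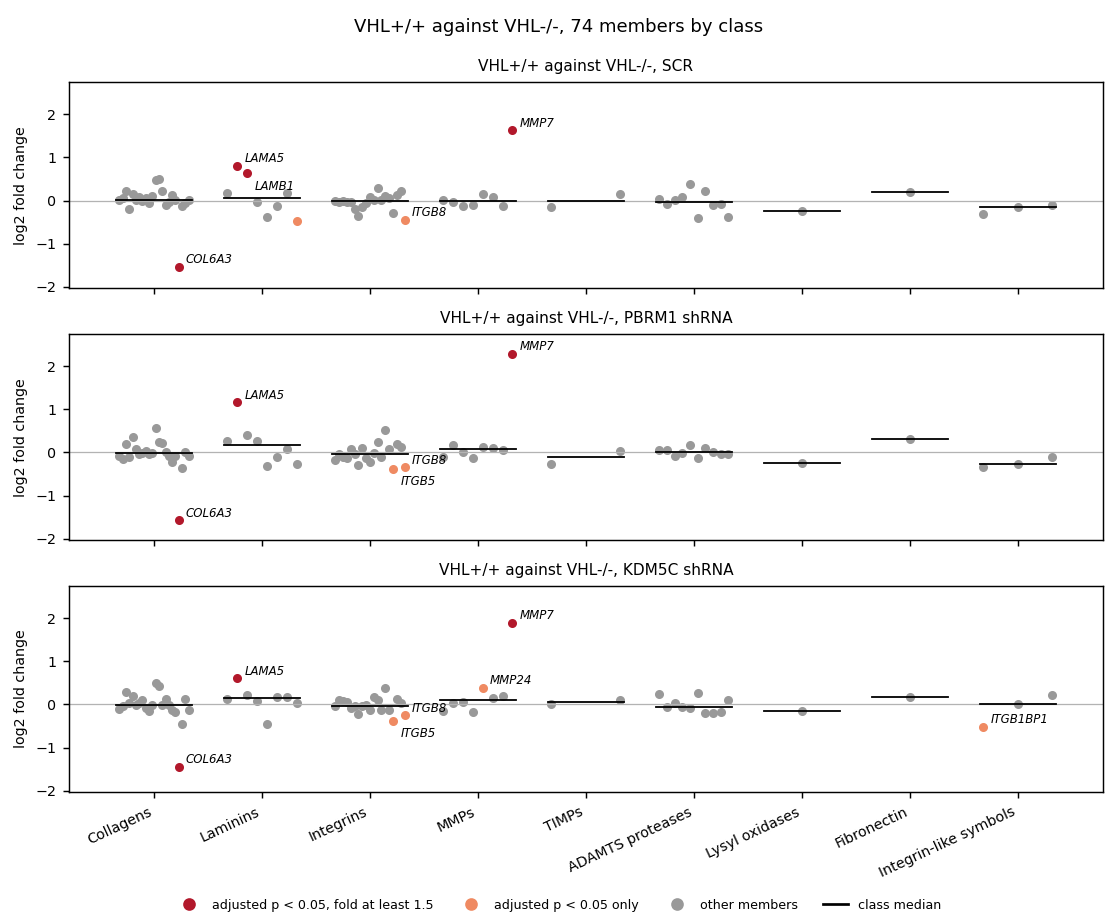
Log2 fold change between VHL+/+ and VHL-/- cells (vertical axes) of the 74 members by class (horizontal axis), with 1 panel each for SCR, PBRM1 shRNA and KDM5C shRNA cells, dark red for called members, orange for those under an adjusted p of 0.05 only, grey for the rest and a black line for the class median. COL6A3 lies between -1.44 and -1.57 and MMP7 between 1.62 and 2.28, while the medians of the collagens, laminins and integrins lie between -0.04 and 0.17.

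Across the 74 members the VHL differences in SCR cells correlated with those in PBRM1 shRNA cells at r = 0.907 (0.648 over all genes) and with those in KDM5C shRNA cells at r = 0.818 (0.529 over all genes). Those in PBRM1 and KDM5C shRNA cells correlated at r = 0.901 (0.637 over all genes). The comparisons use different arrays but the same chips and normalisation, genes are not independent replicates, and the values describe these arrays only. Without COL6A3, MMP7 and LAMA5 the 3 values over 71 members were 0.737, 0.474 and 0.686. For SCR and PBRM1 shRNA cells 70.3% of the members had the same sign (65.0% of all genes). It was 54.1% for SCR and KDM5C shRNA cells (58.8% of all genes) and 64.9% for PBRM1 and KDM5C shRNA cells (61.6% of all genes). The differences between PBRM1 shRNA and SCR in VHL-/- and in VHL+/+ cells correlated at r = 0.590 over the members (0.692 over all genes). Those between KDM5C shRNA and SCR correlated at r = 0.514 (0.565 over all genes), so for the hairpins the members lay below all genes.

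The question of what the shRNAs changed was asked within each VHL background. PBRM1 and KDM5C comparisons of 1 background share their 3 SCR arrays, so their values stand side by side here and are not evidence for each other. COL5A2, which encodes a chain of collagen V that sets the width of collagen fibrils, was lower in all 4 shRNA groups. ITGA5, the alpha subunit of the fibronectin receptor, was lower and COL6A3 higher in arrays labelled PBRM1 shRNA. In VHL-/- cells with PBRM1 shRNA 2 members were called, 1 higher and 1 lower (1.81% of all genes were called), and 4 passed the test (5.43% of all genes). In VHL+/+ cells 1 member was called (0.944% of all genes) and 3 passed the test (2.49% of all genes). With KDM5C shRNA no member was called in either background, where 1.46% of all genes were called in VHL-/- and 1.14% in VHL+/+ cells. There limma gave 6 members an adjusted p under 0.05 in VHL-/- cells (4.78% of all genes) and 3 in VHL+/+ cells (4.19% of all genes), and 16 and 18 an unadjusted p under 0.05, as it did 2301 and 2414 of the 13141 genes. The shares of members that passed were 5.41% and 4.05% for PBRM1 and 8.11% and 4.05% for KDM5C shRNA, and the medians over the 74 members lay between -0.06 and -0.04.

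COL5A2 signal was 7.65, 7.49 and 7.49 in VHL-/- SCR cells, 6.94, 7.10 and 7.05 with PBRM1 shRNA and 6.96, 6.96 and 7.09 with KDM5C shRNA. In VHL+/+ cells it was 7.46, 7.59 and 7.46 with SCR, 6.89, 6.99 and 6.97 with PBRM1 shRNA and 6.84, 6.99 and 7.14 with KDM5C shRNA. The 6 SCR arrays lay above all 12 shRNA arrays. The log2 fold change was -0.51 ± 0.08 (SE, n = 3 against 3, limma adjusted p = 0.00114) for PBRM1 and -0.54 (limma adjusted p = 0.000836) for KDM5C shRNA in VHL-/- cells, and -0.55 (limma adjusted p = 0.00120) and -0.51 (limma adjusted p = 0.00180) in VHL+/+ cells. These folds, between 1.43 and 1.47, fell short of 1.5. Some shRNA arrays, down to 6.84, lay near the signal of dim members, and what this does to these folds was not tested. The limma adjusted p stayed under 0.05 without any single array and in every other processing tried. The fold reached 1.5 within chip 1 in 3 of the comparisons (-0.59 for PBRM1 shRNA in VHL+/+ cells, and -0.61 for KDM5C shRNA in each background), without VHL+/+ SCR replicate 3 for PBRM1 shRNA (-0.60) and without VHL-/- SCR replicate 3 for KDM5C shRNA (-0.59). The VHL differences of this gene were -0.04, -0.08 and -0.01. COL5A1, the chain that pairs with it, was dim and differed by between -0.07 and 0.15.

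ITGA5 signal was 9.67, 9.74 and 9.52 in VHL-/- SCR cells, 9.02, 8.83 and 9.20 with PBRM1 shRNA and 9.37, 9.01 and 8.89 with KDM5C shRNA. In VHL+/+ cells it was 9.20, 9.28 and 9.41 with SCR, 8.82, 8.68 and 8.68 with PBRM1 shRNA and 8.59, 9.07 and 8.93 with KDM5C shRNA. In each background the SCR arrays lay above the shRNA arrays with no overlap. The log2 fold change for PBRM1 shRNA was -0.63 ± 0.14 (SE, n = 3 against 3, limma adjusted p = 0.0107) in VHL-/- and -0.57 (limma adjusted p = 0.0317) in VHL+/+ cells. For KDM5C shRNA it was -0.56 (limma adjusted p = 0.0249) and -0.43 (limma adjusted p = 0.0830). Within chip 1 and chip 2 the 4 values, in that order, were -0.78 and -0.32, -0.49 and -0.73, -0.52 and -0.63, and -0.41 and -0.48. With all arrays the fold reached 1.5 for PBRM1 shRNA in VHL-/- cells, a call that was lost when the second VHL-/- SCR array (limma adjusted p = 0.0603) or the second VHL-/- PBRM1 shRNA array (limma adjusted p = 0.0690) was left out. A call was gained for PBRM1 shRNA in VHL+/+ cells without its replicate 1 (-0.62), and for KDM5C shRNA in VHL-/- cells without VHL-/- SCR replicate 3 (-0.63) or VHL-/- KDM5C shRNA replicate 1 (-0.70). Both of these results also failed the test in other fits. The PBRM1 value in VHL+/+ cells failed without any 1 of its own 6 arrays other than PBRM1 shRNA replicate 1 (limma adjusted p up to 0.153), without the chip term (0.0550) and within chip 1 (0.207). The KDM5C value in VHL-/- cells failed when array 1 or 2 of SCR or array 2 or 3 of KDM5C shRNA cells was left out (up to 0.114) and within chip 1 (0.105). Its beta partner ITGB1 differed by -0.18 and -0.29 with PBRM1 and by -0.12 and -0.25 with KDM5C shRNA in VHL-/- and VHL+/+ cells, and its ligand FN1 by -0.19 and -0.08 and by -0.08 and -0.12, with neither gene passing the test. The stretch before the ITGA5 start, at chr12:54419267-54419516 on the minus strand (GRCh38.p14), is shown as the promoter of the one integrin subunit called. A GC box on the opposite strand begins 210 bases and a HIF core on the opposite strand 130 bases before the start, both in capitals.

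ITGA5: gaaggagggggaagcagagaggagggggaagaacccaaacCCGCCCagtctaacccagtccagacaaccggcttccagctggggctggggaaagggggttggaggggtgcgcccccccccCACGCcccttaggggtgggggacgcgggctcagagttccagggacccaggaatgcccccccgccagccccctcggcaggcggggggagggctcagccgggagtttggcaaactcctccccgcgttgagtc

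COL6A3, whose array values are given above, was higher in arrays labelled PBRM1 shRNA by 0.67 ± 0.16 (SE, limma adjusted p = 0.0187) in VHL-/- and 0.63 (limma adjusted p = 0.0425) in VHL+/+ cells, with no overlap. With KDM5C shRNA the difference was 0.42 (limma adjusted p = 0.154) and 0.52 (limma adjusted p = 0.0745). The VHL-/- call was lost, at limma adjusted p between 0.0516 and 0.0873, when the first or second VHL-/- SCR array or any 1 of the 3 VHL-/- PBRM1 shRNA arrays was left out, and within chip 1 alone (limma adjusted p = 0.0680, log2 fold change 0.68). The VHL+/+ call was lost, at limma adjusted p between 0.0529 and 0.230, without any 1 of the VHL+/+ SCR arrays, VHL+/+ PBRM1 shRNA replicate 2 or 3, VHL+/+ KDM5C shRNA replicate 2, any VHL-/- SCR array or the first or second VHL-/- PBRM1 shRNA array, and without the chip term (limma adjusted p = 0.0768), with only its own arrays (0.0652), within chip 1 (0.115) and with the replicate block (0.0560).

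COL6A1, the chain that shares the trimer with it, passed the test in VHL-/- cells. Its signal rose from 7.38, 7.26 and 7.27 with SCR to 7.77, 7.87 and 7.53 with PBRM1 shRNA (log2 fold change 0.42, limma adjusted p = 0.00994) and to 7.75, 7.64 and 7.75 with KDM5C shRNA (0.41, limma adjusted p = 0.0130). The PBRM1 value failed without array 2 of VHL-/- SCR or of VHL-/- PBRM1 shRNA cells (limma adjusted p up to 0.0654), and the KDM5C value without array 2 of VHL-/- SCR or array 3 of VHL-/- KDM5C shRNA cells (up to 0.0665) and within chip 1 (0.0765). In VHL+/+ cells it differed by 0.07 and 0.16. The PBRM1 values of the 2 backgrounds differed by -0.35 (limma unadjusted p = 0.0143, adjusted p = 1.000), so a difference between backgrounds was not shown.

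**Figure D3:**
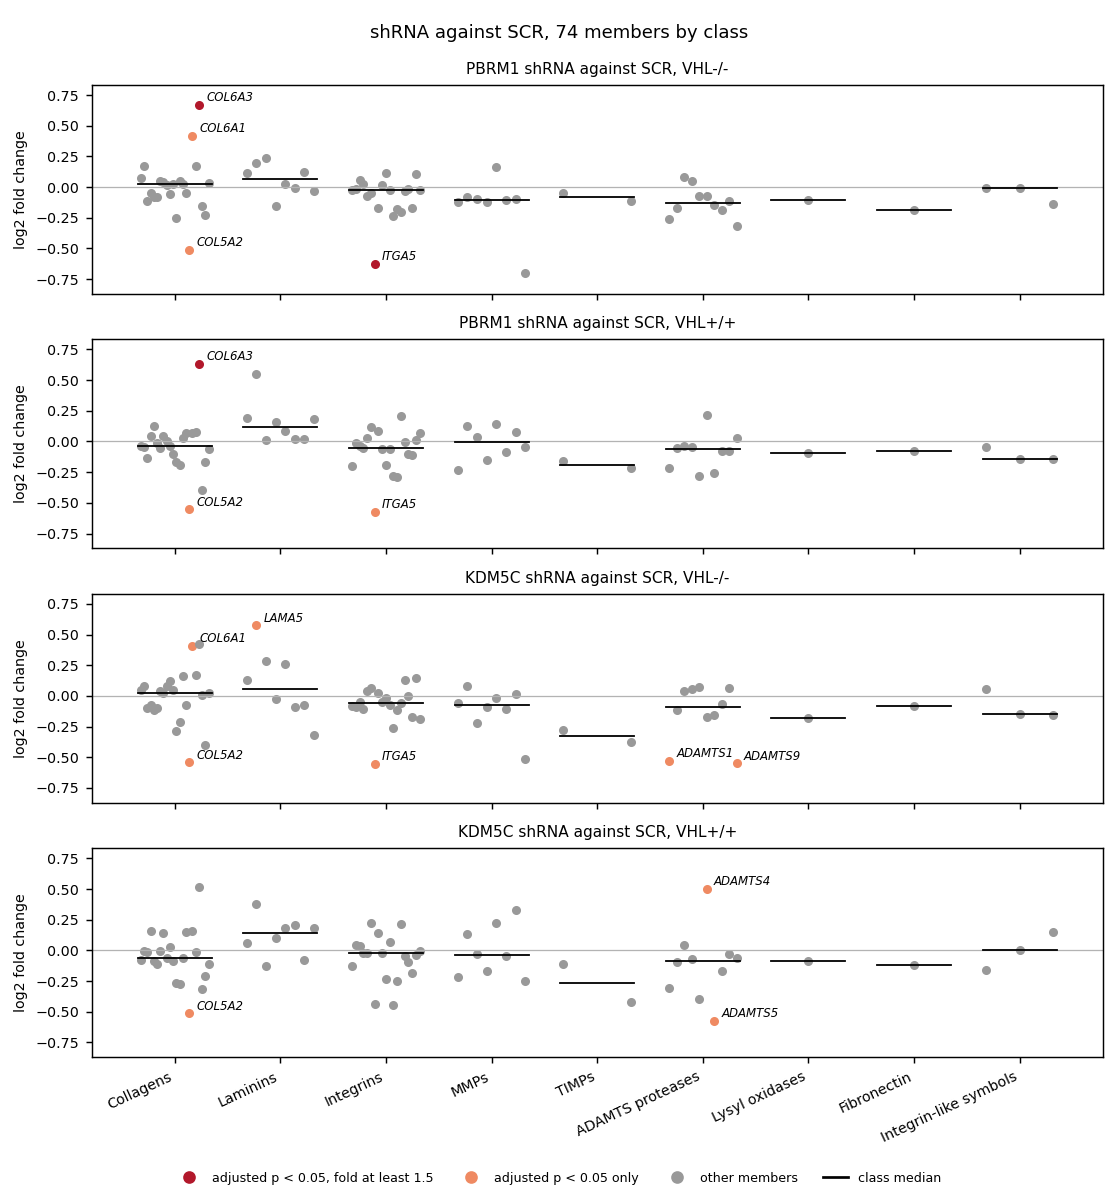
Log2 fold change between shRNA and SCR cells (vertical axes) of the 74 members by class (horizontal axis), in 1 panel for each of the 4 comparisons, with colours and lines for calls, adjusted p and class medians as the legend gives them. COL5A2 lies between -0.55 and -0.51 in each panel, ITGA5 between -0.63 and -0.43, and COL6A3 between 0.42 and 0.67.

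Among the proteases, no MMP or TIMP passed the test for either shRNA. TIMP1 and TIMP2 gave values below 0 in all 4 comparisons, from -0.05 to -0.28 for TIMP1 and from -0.12 to -0.42 for TIMP2. MMP7 differed by -0.70 and -0.05 with PBRM1 and by -0.51 and -0.25 with KDM5C shRNA in VHL-/- and VHL+/+ cells, with an SE of 0.36. With KDM5C shRNA in VHL-/- cells ADAMTS1, an aggrecan- and versican-cutting protease, fell from 9.77, 9.95 and 9.14 to 9.34, 9.32 and 8.61 (log2 fold change -0.53, limma adjusted p = 0.0139), the same on both chips. ADAMTS9, another versican-cutting protease, fell there from 8.95, 8.96 and 8.80 to 8.31, 8.27 and 8.49 (-0.55, limma adjusted p = 0.0100). In VHL+/+ cells with KDM5C shRNA ADAMTS5, the main aggrecanase of cartilage, fell from 7.32, 7.36 and 7.36 to 6.98, 6.64 and 6.69 (-0.58, limma adjusted p = 0.0157). ADAMTS4, another aggrecanase, rose from 6.66, 6.91 and 6.89 to 7.38, 7.33 and 7.26 (0.50, limma adjusted p = 0.0278). All 4 folds were under 1.5. The lower arrays of ADAMTS4 and ADAMTS5 lay near the signal of dim members, and what this does to their folds was not tested. ADAMTS9 reached it within chip 1 (-0.67) and when the third SCR array (-0.63) or the third KDM5C shRNA array (-0.61) was left out, and ADAMTS5 without VHL+/+ KDM5C shRNA replicate 1 (-0.69). Each of the 4 also failed the test in some fits. ADAMTS1 failed without VHL-/- SCR replicate 2 (limma adjusted p = 0.0757) and without the chip term (0.551), and ADAMTS9 without VHL-/- SCR replicate 1 (0.0543) or 2 (0.0534). ADAMTS4 failed without any 1 of its own 6 arrays other than SCR replicate 2 (up to 0.157), without the chip term (0.0551) and within chip 1 (0.0521). ADAMTS5 failed without array 1 or 3 of SCR or array 2 or 3 of KDM5C shRNA cells (up to 0.0795) and within chip 1 (0.0593). LAMA5 rose by 0.58 with KDM5C shRNA in VHL-/- cells (limma adjusted p = 0.0389), reaching 1.5-fold within chip 1 (0.66) and without VHL-/- KDM5C shRNA replicate 3 (0.71), and differed by 0.38 in VHL+/+ cells and by 0.19 and 0.55 with PBRM1 shRNA (limma adjusted p = 0.191, 0.584 and 0.0717). The LAMA5 value that passed did so in 11 of 18 fits that left out 1 array. It failed without any 1 of the VHL-/- SCR arrays, the first or second VHL-/- KDM5C shRNA array, VHL+/+ SCR replicate 2 or VHL+/+ KDM5C shRNA replicate 3 (limma adjusted p up to 0.163), without the chip term (0.637) and with the replicate block (0.0510).

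Whether a hairpin acted differently with and without VHL was tested as the difference of the 2 fold changes. No member and 0% of all genes were called for either hairpin by limma, with 4 members for PBRM1 and 8 for KDM5C at an unadjusted p under 0.05, against 553 and 1014 of the 13141 genes. ADAMTS4 had the lowest p, with a KDM5C shRNA value 0.68 ± 0.17 (SE) higher in VHL+/+ than in VHL-/- cells (unadjusted p = 0.00126, adjusted p = 0.354, limma). For ADAMTS9 the difference was 0.49 (unadjusted p = 0.00891).

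**Figure D4:**
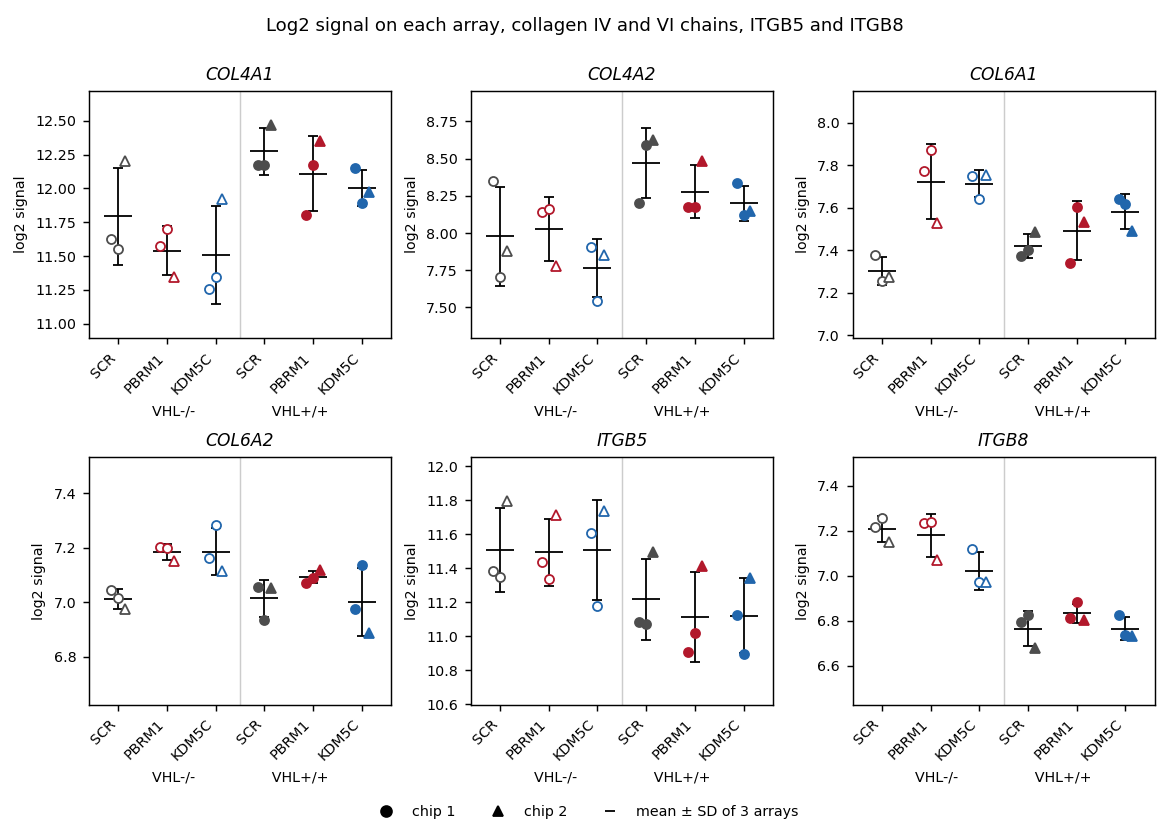
Log2 signal (vertical axes, a different range in each panel) of COL4A1, COL4A2, COL6A1, COL6A2, ITGB5 and ITGB8 on each of the 18 arrays by group (horizontal axis), open for VHL-/- and filled for VHL+/+ cells, circles for chip 1 and triangles for chip 2, with bars for mean ± SD of 3 arrays. The ITGB8 signal of all VHL+/+ arrays (at most 6.88) is below that of all VHL-/- arrays (at least 6.97), whereas SCR groups overlap for both collagen IV chains, for COL4A1 only across chips.

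The wider matrix was looked at through a list of 153 other genes, of which 110 were in the table and 9 were called in some comparison. The share of all genes called in some comparison is not given here, and the shares for each comparison follow. In the order SCR, PBRM1 shRNA and KDM5C shRNA, VHL gave 2, 3 and 1 calls, or 1.82%, 2.73% and 0.909% of the 110, where 1.03%, 1.02% and 0.89% of all genes were called. PBRM1 shRNA gave 5 calls in VHL-/- and 3 in VHL+/+ cells, or 4.55% and 2.73% (1.81% and 0.944% of all genes). KDM5C shRNA gave 3 and 2, or 2.73% and 1.82% (1.46% and 1.14% of all genes).

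LUM (lumican), a small proteoglycan that binds collagen fibrils, was called in all 4 shRNA comparisons and in all 26 other settings of each. Its signal was 7.43, 7.73 and 7.82 in VHL-/- SCR cells, 6.86, 6.74 and 7.19 with PBRM1 shRNA and 6.99, 6.77 and 7.02 with KDM5C shRNA. In VHL+/+ cells it was 8.34, 7.98 and 8.24 with SCR, 7.40, 7.03 and 7.46 with PBRM1 shRNA and 7.12, 7.25 and 7.60 with KDM5C shRNA. LUM fell by 0.73 and 0.89 on the log2 scale with PBRM1 and by 0.73 and 0.86 with KDM5C shRNA in VHL-/- and VHL+/+ cells (limma adjusted p between 0.000436 and 0.00150), with no overlap. LUM is also on the fibroblast marker list, of which ACTA2 and POSTN were the other genes with a row. ACTA2 differed by 0.07, 0.22, -0.01 and -0.13 and POSTN by at most 0.04 in size in the 4 shRNA comparisons, and neither passed the test. GPC4, a heparan sulfate proteoglycan of the cell surface, fell by 0.64 and 0.62 with PBRM1 shRNA (limma adjusted p = 0.00114 and 0.00281) and by 0.57 in both backgrounds with KDM5C shRNA, there under 1.5-fold. Its PBRM1 calls were lost without the chip term (limma adjusted p = 0.0548 and 0.114) and, in VHL+/+ cells, within chip 1 (0.0815), and fell under 1.5-fold without VHL-/- PBRM1 shRNA replicate 1 (-0.55) and without VHL+/+ PBRM1 shRNA replicate 2 (-0.57).

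A further 6 genes were called once each. PLAU (urokinase) was lower with PBRM1 shRNA in VHL-/- cells, at 8.90, 8.95 and 9.53 against 10.54, 10.50 and 10.50 with SCR (log2 fold change -1.38, limma adjusted p = 0.0243), a call lost without any 1 of the VHL-/- SCR arrays or the first or second VHL-/- PBRM1 shRNA array (limma adjusted p up to 0.111), without the chip term (0.0506) and with a trended robust prior (0.0579). With KDM5C shRNA in VHL-/- cells PLAU was 10.11, 9.88 and 8.94. In VHL+/+ cells it was 10.27, 10.13 and 10.26 with SCR, 10.02, 8.93 and 8.81 with PBRM1 shRNA and 8.81, 10.20 and 9.59 with KDM5C shRNA. None of these other shRNA comparisons passed the test. TNC (tenascin C), an anti-adhesive glycoprotein, was higher with PBRM1 shRNA in VHL-/- cells on chip 1 alone, at 8.85 and 9.08 against 7.95 and 7.67, and was 7.60 against 7.63 on chip 2 (0.76, limma adjusted p = 0.0296). That call was lost in 6 of 26 other settings, among them without any 1 of these 4 chip 1 arrays (limma adjusted p between 0.0837 and 0.166), without the chip term (0.232) and with only its own arrays (0.0555). CTGF, a matricellular target of TGF-beta and YAP, was lower with KDM5C shRNA in VHL-/- cells (-0.68, limma adjusted p = 0.0180), a call lost without VHL-/- SCR replicate 1 or 3 or VHL-/- KDM5C shRNA replicate 1 or 2 (limma adjusted p between 0.0604 and 0.0762) and without the chip term (0.385). For VHL, PLAUR, the urokinase receptor, was lower in SCR cells (-0.70, limma adjusted p = 0.0221), a call lost without any 1 of the 4 SCR arrays of chip 1 (limma adjusted p between 0.0723 and 0.130) and without the chip term (0.304). SPP1 (osteopontin), an RGD ligand of integrins, was higher with VHL in PBRM1 shRNA cells (0.82, limma adjusted p = 0.000158, lost without the chip term (0.567) and in no other setting), as was SDC2 (syndecan 2) (0.77, limma adjusted p = 0.0370). SPP1 also passed the test for VHL in KDM5C shRNA cells (0.55, limma adjusted p = 0.00654), under 1.5-fold, but not in SCR cells. With PBRM1 shRNA in VHL-/- cells SPP1 was lower than with SCR (-0.57, limma adjusted p = 0.00231), also under 1.5-fold. The SDC2 call was lost in 10 of 26 settings, among them when replicate 1 or 3 of the VHL+/+ PBRM1 shRNA group, the first or second VHL-/- PBRM1 shRNA array, the first or second VHL+/+ KDM5C shRNA array or array 1 or 3 of VHL-/- SCR cells was left out (limma adjusted p between 0.0501 and 0.160), without the chip term (0.190) and with only its own arrays (0.114). Of 18 collagen-modifying and folding enzymes none was called. P4HA2, a collagen prolyl hydroxylase, fell with VHL in SCR cells by 0.54 on the log2 scale (limma adjusted p = 0.0328). LEPREL1, of the same list, was higher with VHL in KDM5C shRNA cells (0.40, limma adjusted p = 0.0421). In VHL-/- cells LEPREL1 was lower with PBRM1 shRNA (-0.48, limma adjusted p = 0.00861) and KDM5C shRNA (-0.37, 0.0430). PLOD3 was lower with KDM5C shRNA in VHL-/- cells (-0.47, limma adjusted p = 0.00519). Other settings for these enzymes are not reported here.

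**Figure D5:**
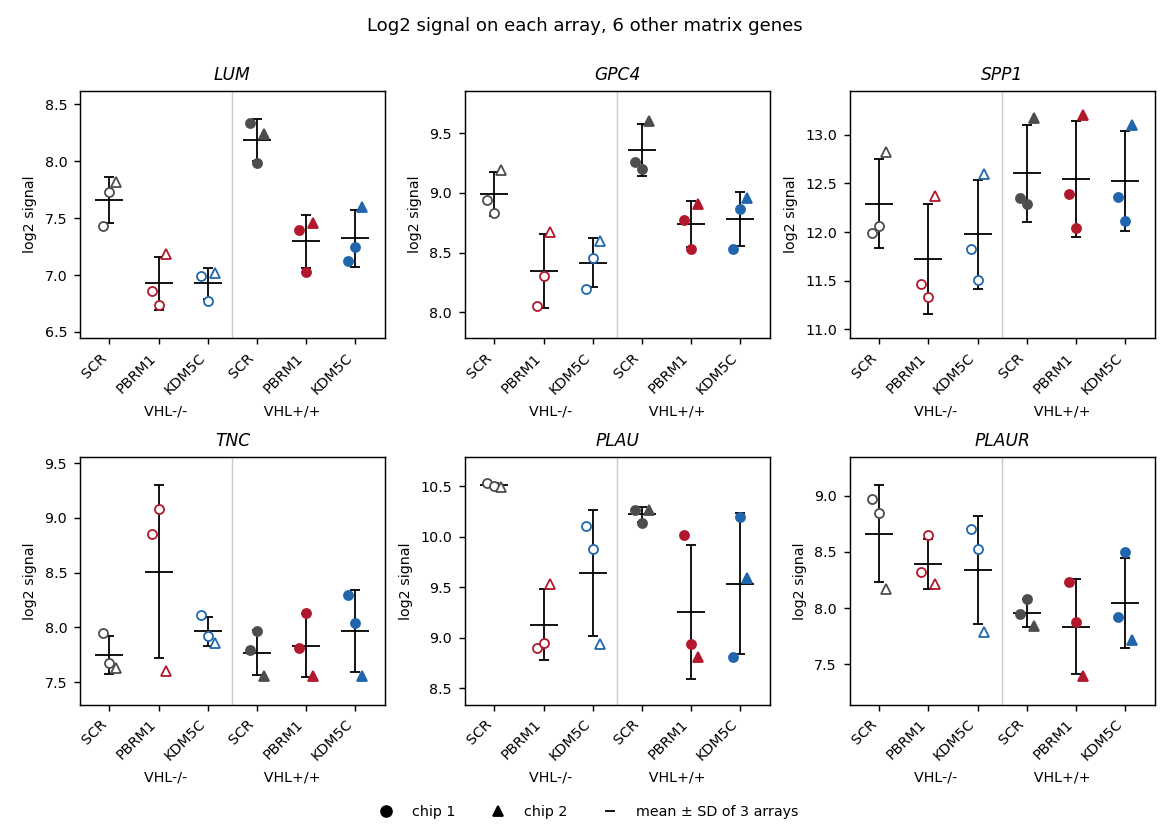
Log2 signal (vertical axes, a different range in each panel) of LUM, GPC4, SPP1, TNC, PLAU and PLAUR on each of the 18 arrays by group (horizontal axis), open for VHL-/- and filled for VHL+/+ cells, circles for chip 1 and triangles for chip 2, with bars for mean ± SD of 3 arrays. LUM is highest in the SCR arrays of each background, and TNC with PBRM1 shRNA in VHL-/- cells is high on chip 1 only.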

How the data were processed

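Total RNA of 786-O cells was hybridised as biotin-labelled cRNA to Illumina HumanHT-12 V4 arrays. The authors preprocessed the scans in GenomeStudio, then used limma for force-positive background correction, log2 transformation and quantile normalisation, kept probes detected at 0.05 and averaged the probes of a gene, and the deposited table holds these log2 values for 13141 genes on 18 arrays. No raw scans, detection p-values or probe identities were used here. Batch correction by ComBat was described by the authors for heatmaps, and the deposited values still differ by chip.

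Groups were taken from the sample labels. A model with 6 group means and the chip was fitted to all arrays with limma 3.58.1 in R 4.3.3 (lmFit, eBayes, 11 residual degrees of freedom), with 7 comparisons of groups and 2 differences of shRNA effects, and Benjamini-Hochberg adjustment over all genes of each. Calls needed an adjusted p under 0.05 and a fold of 1.5. The script was tested on simulated data. The number of arrays limits the precision. The labels do not say that replicates were separate cultures, so p-values measure the spread between arrays, which may be technical.

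Members were matched by symbol, of which 73 are current and 1 is a synonym. The members and gene lists were chosen with earlier results of these data known. Named genes were all members called in any comparison, the 3 brightest and the 2 with the largest change of each class, a fixed list (LOX, LOXL2, FN1, COL4A1, COL4A2, ITGA5, ITGB1, ITGAV, ITGB3, MMP2, MMP14, TIMP1 and TIMP3, of which LOXL2 and TIMP3 were not analysed here), and other matrix genes called in any comparison. Others named passed the adjusted p or share a complex with one of these, and were chosen after their values were seen. Alternatives dropped the chip term, replaced it with a replicate block, fitted only the arrays compared or chip 1, left out the dimmest 0.25 of genes, centred arrays on the median, applied cyclic loess, used a trended robust prior, changed the thresholds or left out each array. Promoter stretches come from RefSeq (GRCh38.p14). The values of some genes that enter the counts are not reported here.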

Additional observations from a re-analysis of the deposited data

How the results depend on the processing

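Without the chip term the called members went from 4 to 2 for VHL in SCR cells, from 3 to 1 with PBRM1 shRNA and with KDM5C shRNA, and from 1 to 0 for PBRM1 shRNA in VHL+/+ cells. Fitting only the arrays compared gave 1 for VHL with PBRM1 shRNA and 0 for PBRM1 shRNA in VHL+/+ cells. Chip 1 alone gave 1 for PBRM1 shRNA in VHL-/- cells and 5 and 1 for KDM5C shRNA in VHL-/- and VHL+/+ cells, where none was called before. A fold of 2 left 2 for VHL in SCR cells and 0 for PBRM1 shRNA in each background. The adjusted p alone gave 4 and 3 for PBRM1 shRNA, 6 and 3 for KDM5C shRNA, and 5 and 7 for VHL with PBRM1 and KDM5C shRNA. Leaving out 1 array at a time gave 0 to 2 and 0 to 3 calls for PBRM1 shRNA in VHL-/- and VHL+/+ cells, 0 to 3 and 0 to 1 for KDM5C shRNA, 3 to 4, 3 to 4 and 1 to 5 for VHL, and 0 for both differences of effects. The arrays whose loss moved a count for PBRM1 shRNA are those named beside COL6A3 and ITGA5. When the third SCR array or the third KDM5C shRNA array was left out, 3 members were called for KDM5C shRNA in VHL-/- cells, and 1 without VHL-/- KDM5C shRNA replicate 1. In VHL+/+ cells 1 was called for KDM5C shRNA without SCR replicate 2 or KDM5C shRNA replicate 1. For VHL with KDM5C shRNA 1 was called without VHL+/+ replicate 3 and 5 without VHL-/- replicate 3. Beyond the loss of samples in some of these, the cause was not tested. Dropping the dimmest 0.25 of genes, median centring, cyclic loess and a trended robust prior left every one of these counts within 1.5 times, though the trended robust prior ended the MMP7 call for VHL in SCR cells (limma adjusted p = 0.0607). No member result that passed the test was reversed in any setting.

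The labels do not say that a replicate number marks a shared culture or day. Deviations from the group means of same-numbered arrays of different groups correlated at medians of 0.150, 0.283 and 0.521 for replicates 1, 2 and 3, with lowest values of -0.172, 0.113 and 0.0725, and 12 of 18 arrays correlated best with an array of their own number. The chip was left in these deviations, and every replicate 3 lay on chip 2, so the values cannot separate a pairing from the chip. Not every pair was above 0.1, and the numbers were not taken as a pairing. These values come from the data, not from the design. With the replicate block in place of the chip term, 0 members were called for PBRM1 shRNA in VHL+/+ cells against 1 before, LAMA5 lost its call for VHL with KDM5C shRNA (limma adjusted p = 0.0593), and the other counts stayed within 1.5 times.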
